A study of Glycine max with 12 samples.

Results

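GRAS proteins are a plant-specific family of transcriptional regulators, and soybean (Glycine max) carries many of them. The genes described here are the 112 of 52872 annotated genes in the count table whose description names the GRAS domain (Pfam PF03514). No expression value enters this rule, though earlier results of these data were known when these genes were chosen. Their transcripts were measured by RNA-seq in the apical 1 cm of the root of seedlings between 10 and 11 days old, in 12 libraries of 4 groups with 3 libraries each. The PPZ plus BL group received 0.1 μM propiconazole (PPZ, an inhibitor of brassinosteroid synthesis) and 0.01 nM brassinolide (BL, an active brassinosteroid). The PPZ group received 0.1 μM PPZ for 2.5 days. The BL group received 0.01 nM BL for 0.5 days, and the mock group received neither compound. By the description of the series, PPZ came first in the combined group, for 2 days, and BL followed for 0.5 days, while the sample label of that group can be read in the opposite order. The cultivar is Wm82 by the label of every sample, while the methods for plant growth name the genotype YC03-3. The series description writes eBL in one place and BL in another, and the labels do not say which treatment time the mock seedlings were matched to.

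Within the family, DELLA proteins repress gibberellin responses and are degraded once the gibberellin receptor GID1 has bound the hormone. In Arabidopsis they also bind BZR1, the transcription factor that carries the brassinosteroid signal, so that the gibberellin and brassinosteroid pathways meet at these proteins. Other branches include SCARECROW and SHORT-ROOT, which pattern the root of Arabidopsis, and NSP1 and NSP2, which are needed for the nodulation response to rhizobia in legumes. For most of the 112 genes the sources used here give only the domain, so they are named by identifier and no role is stated for them.

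Total counts lay between 18450894 and 24815541 per library, and between 31410 and 50157 of these fell on GRAS genes. Values are CPM, which are TMM-normalized counts put on an equal sequencing depth for the 12 libraries, with SD over n = 3 libraries, and the test throughout is the quasi-likelihood test of edgeR, with p-values adjusted by the Benjamini-Hochberg method over all genes tested. A gene is said to have risen or fallen where its adjusted p was 0.01 or less, and it is called where it also changed by at least 3-fold. Mock 1 lay farther from its own group than any other library (mean Euclidean distance in log2(CPM + 1) of 103 over all genes, against 56.02 to 87.8 for the other libraries). Transcripts of dividing cells differed between the groups: the 64 core histone genes summed to 2919.9 to 4389 CPM in PPZ plus BL, 3328 to 4058 CPM in PPZ, 5133 to 5971 CPM in BL and 2451 to 2820.2 CPM in mock, and 4 of them had no count. The 87 cyclin genes differed less. They summed to 828 to 994 CPM in PPZ plus BL, 894 to 956 CPM in PPZ, 964 to 1071 CPM in BL and 710 to 837 CPM in mock, with 3 at 0. Genes of chlorophyll a/b binding proteins, markers of green tissue, summed to 444 to 642 CPM in PPZ plus BL, 184 to 253 CPM in PPZ, 368 to 491 CPM in BL and 169 to 322 CPM in mock (39 genes, 1 without a count). The 7 globin genes, which include nodule leghaemoglobins, summed to 849 to 1187 CPM in PPZ plus BL, 1982 to 2194 CPM in PPZ, 899 to 1243 CPM in BL and 1489 to 1919.7 CPM in mock, with 3 at 0. The part of these differences in the results on GRAS genes was not tested, and in whole root tips fewer cells of a type cannot be told apart from less RNA per cell. Markers of the root meristem, cap and endodermis could not be checked, because the names available here do not identify them.

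GRAS transcripts were found at every level. Of the 112 genes, 3 had no count in any library, 28 averaged under 1 CPM (those 3 included), 41 lay between 1 and 10 CPM, 41 between 10 and 100 CPM, and 2 above 100 CPM. The 10 most abundant genes supplied 43.8% of all GRAS transcripts. Per kilobase of gene, the median level was 1.94 CPM per kb and the highest was 60.5 CPM per kb, in Glyma.06G121300 (chromosome 6, 9854226 to 9858065). In total the family reached 1680 ± 141 CPM in PPZ plus BL, 2140 ± 251 CPM in PPZ and 1610 ± 40.4 CPM in BL, against 1921 ± 158 CPM in mock. The PPZ plus BL libraries (1595 to 1843 CPM) lay below the PPZ libraries (1954 to 2426 CPM). This separation needs the TMM factors. Without them PPZ 3 (39600 of 21571536 counts) lay below PPZ plus BL 1 (35455 of 18969552). A few abundant genes weigh on these sums, such as Glyma.06G265500 (178 CPM in PPZ, 4.2 CPM in PPZ plus BL) and Glyma.13G285400 (216 and 24.2 CPM). The median log2 fold change of GRAS genes in PPZ plus BL over PPZ was positive, at 0.26. The PPZ libraries lay above the BL libraries (1563 to 1635 CPM) and overlapped with mock (1741 to 2036 CPM). Low counts kept 19 genes out of every test, and 86 genes were tested in all comparisons. Members lay on all 20 chromosomes, with the most on chromosome 11 (15 genes), chromosome 13 (11 genes) and chromosome 12 (10 genes).

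The share of GRAS genes called against mock, in either direction, lay above that of all genes after BL and after PPZ. It lay below that of all genes in PPZ plus BL. Without the fold threshold the share was close to that of all genes after BL (21.1% against 21.6%) and after PPZ (22% against 19.7%). By direction, the share called lower was above that of all genes after BL and after PPZ. In PPZ plus BL the share called lower was close to that of all genes (4.35% against 3.03%). By adjusted p alone it was below that of all genes there (5.43% against 7.45%). No test compared these shares. After BL, 10 of 90 GRAS genes tested were called against mock, beside 7.97% of all genes, with 3 higher (all genes 4.58%) and 7 lower (all genes 3.39%). After PPZ, 13 of 91 were called against mock, beside 9.14% of all genes, with 6 higher (6.32%) and 7 lower (2.83%). In PPZ plus BL only 4 of 92 were called against mock (all genes 6.77%), 0 higher (3.74%) and 4 lower (3.03%). Between PPZ plus BL and PPZ, 8 of 91 were called (all genes 7.73%), 2 higher (2.15%) and 6 lower (5.58%), and this balance was 5 higher and 6 lower with scaling by library size alone. Between PPZ and BL, 8 of 91 were called (all genes 6.83%), 6 higher (4.84%) and 2 lower (2%). By adjusted p alone the counts were 19 after BL (all genes 21.6%), 20 after PPZ (all genes 19.7%) and 8 in PPZ plus BL (all genes 14.1%), each against mock. After BL, 4 rose (10.3%) and 15 fell (11.3%), after PPZ 10 rose (11.3%) and 10 fell (8.38%), and in PPZ plus BL 3 rose (6.61%) and 5 fell (7.45%). Between PPZ plus BL and PPZ the count was 18 (all genes 19.5%), with 6 higher (7.99%) and 12 lower (11.5%). Between PPZ and BL it was 25 (all genes 26.6%), with 16 higher (13.6%) and 9 lower (13%).

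These counts moved as single libraries were left out. The share of all genes called in the same fits is not given here, so the moves are no result about the family. For BL against mock, 4 genes were called without BL 1, 3 without BL 2, 3 without BL 3, 2 without mock 2, 6 without mock 3 and 13 without mock 1. The count for PPZ against mock was 5 without PPZ 1, 6 without PPZ 2 and 6 without mock 2, and it was 16 without mock 1. For PPZ plus BL against mock it was 2 without any 1 of the PPZ plus BL libraries or mock 2, and 10 without mock 1. DESeq2, and equally a fit of all 12 libraries, called 8 genes there, 4 of them higher and 4 lower. For PPZ against BL, 5 genes were called without BL 1, BL 2, PPZ 1 or PPZ 2.

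In each treated group, more GRAS genes were below mock than above it. All comparisons with mock use the same mock libraries, and so does the order of group means given below. Their shared direction is therefore not repeated independent evidence, and a high level in the mock libraries alone was not tested. The median log2 fold change against mock was -0.25 after BL, -0.29 after PPZ and -0.19 in PPZ plus BL, where the median over all genes tested was -0.01, 0.00 and 0.00 in the same order. Of the genes tested, 60 of 90 (66.7%) had a negative log2 fold change after BL, 59 of 91 (64.8%) after PPZ and 55 of 92 (59.8%) in PPZ plus BL, whereas 50.7%, 50.1% and 50.3% of all genes did. Scaling by library size alone moved the medians to -0.20, -0.42 and -0.14 for GRAS genes, and to 0.04, -0.12 and 0.05 for all genes. Mock held the highest group mean for 41 of the 93 genes that passed the filter over all 12 libraries (44.1%, against 32.1% of all genes). PPZ held the lowest for 40 of them (43.01%, against 27.9% of all genes), and BL held the highest for only 8 (8.602%, against 21.5% of all genes). Between PPZ plus BL and PPZ the median was 0.26 for GRAS genes and 0.01 for all genes, or 0.43 and 0.19 with scaling by library size alone.

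**Figure D1:**
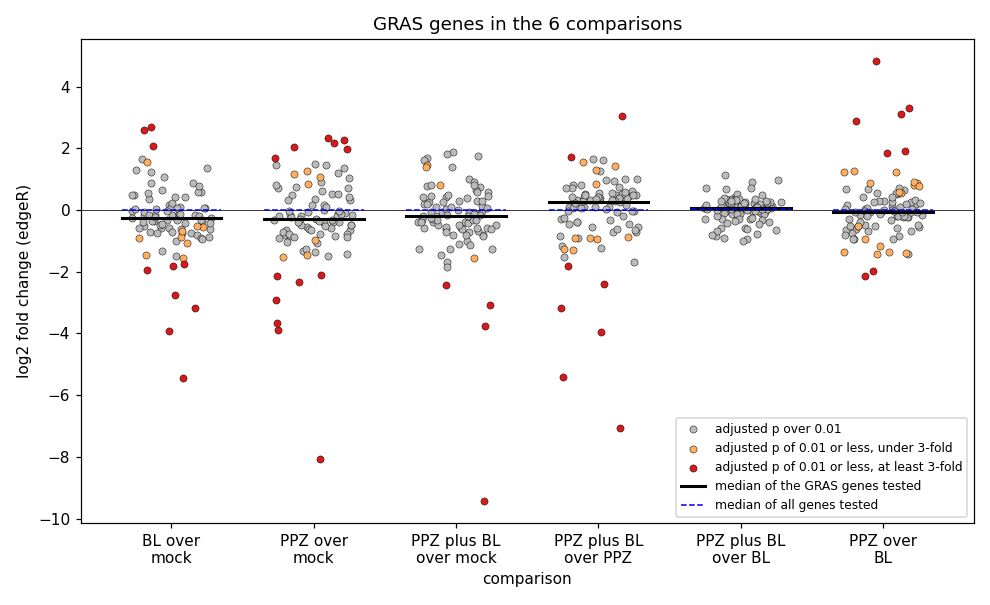
Log2 fold change of each GRAS gene tested (points) in the 6 comparisons, with genes called in red, genes past the adjusted p alone in orange and all others in grey. Thick lines are medians of the GRAS genes (-0.25 for BL over mock) and dashed lines medians of all genes tested. The lowest points for PPZ over mock and for PPZ plus BL over mock and over PPZ belong to genes with no count in 1 group, whose fitted values are not bounds.

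The 7 GRAS genes that also carry the DELLA domain (Pfam PF12041) are the candidates for gibberellin repressors, and RefSeq names GAI1 and GAI2 among them. Together they reached 273 ± 12.2 CPM in PPZ plus BL, 138 ± 19.5 CPM in PPZ and 261 ± 12.03 CPM in BL, against 211 ± 36.4 CPM in mock. The 4 abundant genes were lowest in PPZ by their means, and 3 weakly expressed ones stayed between 2.12 and 4.48 CPM in every group mean.

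GAI2 (Glyma.11G216500, chromosome 11, 35957949 to 35961095) had 91.6, 99.8 and 102 CPM in PPZ plus BL, 34.9, 38.6 and 44.1 CPM in PPZ and 94.3, 83.4 and 89.8 CPM in BL, against 71.02, 44.2 and 31.1 CPM in mock. Every PPZ plus BL and BL library lay above every PPZ and mock library, and mock 1 stood closest to them. It rose in PPZ plus BL against PPZ (log2 fold change 1.30 ± 0.12 SE, edgeR adjusted p = 0.000176), and it was lower in PPZ than in BL (log2 fold change -1.18 ± 0.11 SE, edgeR adjusted p = 0.00027). Both results held whichever library was left out. Against mock the difference did not pass for BL (log2 fold change 0.86 ± 0.28 SE, edgeR adjusted p = 0.0419) or for PPZ plus BL (log2 fold change 1.00 ± 0.27 SE, edgeR adjusted p = 0.028), although both passed once mock 1 was left out (edgeR adjusted p = 0.000892 for BL and edgeR adjusted p = 0.00112 for PPZ plus BL).

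Glyma.18G040000, another DELLA gene (chromosome 18, 3265382 to 3268574), gave 67.6, 76.4 and 68.7 CPM in PPZ plus BL, 20.5, 23.3 and 27.9 CPM in PPZ and 68.6, 56.7 and 64.8 CPM in BL, against 62.7, 36.9 and 27.6 CPM in mock. Its PPZ plus BL libraries were all above its PPZ libraries, while mock 1 reached the range of BL and mock 3 that of PPZ. It rose in PPZ plus BL against PPZ (log2 fold change 1.55 ± 0.13 SE, edgeR adjusted p = 0.000144) and was lower in PPZ than in BL (log2 fold change -1.40 ± 0.13 SE, edgeR adjusted p = 0.000278), whichever library was left out.

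GAI1 (Glyma.05G140400, chromosome 5, 33364270 to 33366971) showed 55.4, 58.4 and 55.4 CPM in PPZ plus BL, 33.6, 42.3 and 43.6 CPM in PPZ and 54.9, 57.02 and 59.5 CPM in BL, against 59.1, 53.6 and 62.8 CPM in mock. All PPZ libraries lay below all others, while the other groups overlapped. PPZ was lower than BL (log2 fold change -0.52 ± 0.11 SE, edgeR adjusted p = 0.00818), a result that was lost whichever library was left out (edgeR adjusted p between 0.0104 and 0.03). The differences of PPZ from mock (log2 fold change -0.55 ± 0.14 SE, edgeR adjusted p = 0.0166) and of PPZ plus BL from PPZ (log2 fold change 0.48 ± 0.12 SE, edgeR adjusted p = 0.0174) missed the threshold.

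For Glyma.08G095800 (chromosome 8, 7309732 to 7312475) the values were 41.4, 44.3 and 34.8 CPM in PPZ plus BL, 18.9, 28.4 and 33.4 CPM in PPZ and 41.8, 40.1 and 43.2 CPM in BL, against 49.6, 55.2 and 53.4 CPM in mock. Mock was the highest group without overlap and PPZ the lowest without overlap. It fell in PPZ against mock (log2 fold change -0.97 ± 0.20 SE, edgeR adjusted p = 0.00918), which held only without mock 1 and was lost without any other library (edgeR adjusted p between 0.0102 and 0.0358). The 3 remaining DELLA genes passed in no comparison. Glyma.06G213100 averaged 3.33 ± 0.498 CPM in PPZ plus BL, 2.32 ± 0.512 CPM in PPZ and 4.48 ± 0.886 CPM in BL, against 2.41 ± 0.905 CPM in mock. For Glyma.04G150500 the averages were 2.38 ± 0.353 CPM in PPZ plus BL, 3.89 ± 1.64 CPM in PPZ and 2.44 ± 0.242 CPM in BL, against 2.72 ± 0.447 CPM in mock, with PPZ 1 highest at 5.63 CPM. Glyma.10G190200 averaged 2.12 ± 0.326 CPM in PPZ plus BL, 2.397 ± 0.332 CPM in PPZ and 2.56 ± 0.461 CPM in BL, against 2.97 ± 0.186 CPM in mock.

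**Figure D2:**
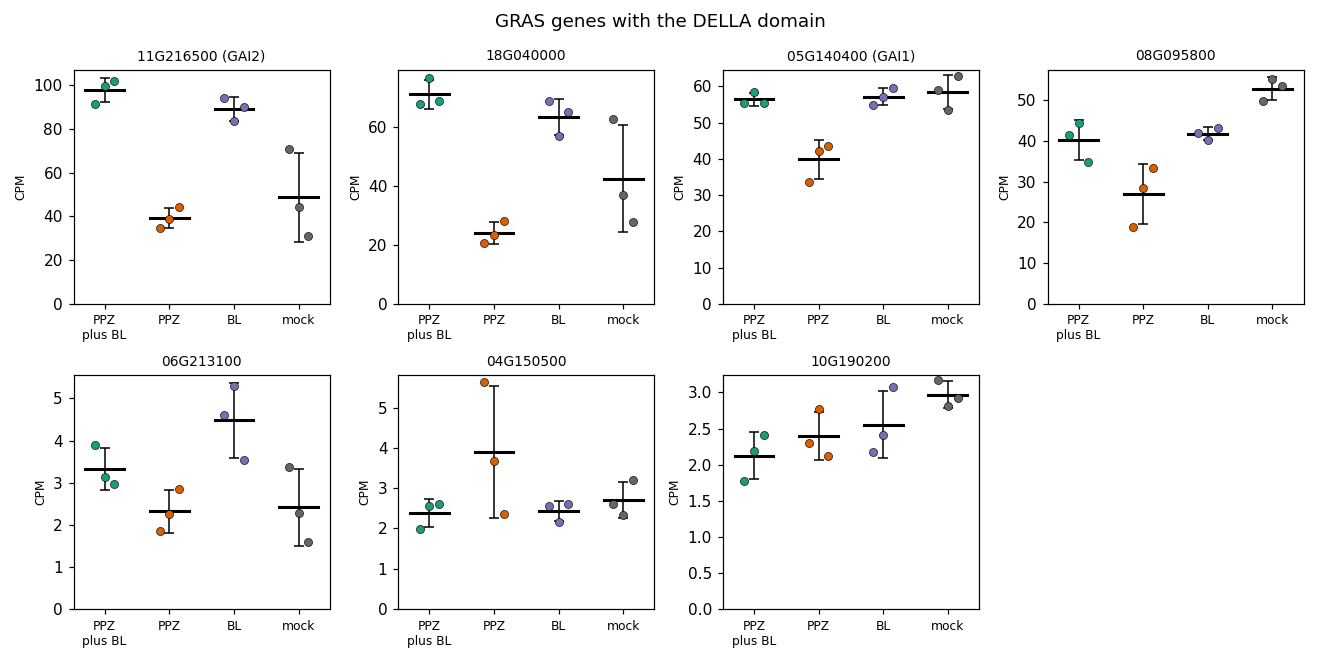
CPM of the 7 GRAS genes with the DELLA domain in each library (points), with group means (lines) and SD (bars, n = 3), in PPZ plus BL, PPZ, BL and mock. GAI2 and Glyma.18G040000 sit high in all PPZ plus BL and BL libraries and low in all PPZ libraries, while their mock libraries spread widely, with mock 1 at 71.02 CPM for GAI2.

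Genes that make, break down or perceive gibberellin, the hormone that DELLA proteins answer to, were read from RefSeq symbols. GA20OX and GA3OX enzymes make active gibberellins, GA2OX enzymes inactivate them, and GID1 is the receptor. Of 22 such genes, 10 to 12 were tested in each comparison. Summed over 6 genes, GA3OX transcripts were 68.7 ± 8.16 CPM in PPZ plus BL, 6.55 ± 1.64 CPM in PPZ and 41.5 ± 3.28 CPM in BL, against 6.25 ± 2.304 CPM in mock. GA3OX3 (Glyma.13G361700) made up most of this sum, with 74.97, 62.9 and 60.5 CPM in PPZ plus BL, 4.35, 6.69 and 7.45 CPM in PPZ and 43.7, 38.2 and 37.7 CPM in BL, against 4.91, 4.61 and 3.21 CPM in mock. Both groups that had received BL were above both that had not, and the gene was called in BL against mock (log2 fold change 3.22 ± 0.18 SE, edgeR adjusted p = 0.000216) and in PPZ plus BL against PPZ (log2 fold change 3.41 ± 0.21 SE, edgeR adjusted p = 4.57e-05). GA3OX1 (Glyma.04G071000) averaged 1.198 ± 0.473 CPM in PPZ plus BL, 0.0171 ± 0.0295 CPM in PPZ and 1.28 ± 0.223 CPM in BL, against 1.95 ± 1.52 CPM in mock. It was lower in PPZ than in mock (edgeR adjusted p = 0.0045) and higher in PPZ plus BL than in PPZ (edgeR adjusted p = 0.00122), with PPZ libraries at 0.0512, 0 and 0 CPM, too low for a fold.

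The 6 GA20OX genes summed to 7.23 ± 1.97 CPM in PPZ plus BL, 1.61 ± 0.396 CPM in PPZ and 4.47 ± 2.17 CPM in BL, against 2.96 ± 1.45 CPM in mock. GA20OX3 (Glyma.09G149200), which supplied most of it, rose in PPZ plus BL against PPZ (log2 fold change 2.10 ± 0.28 SE, edgeR adjusted p = 0.00105). The sum of the 9 GA2OX genes was highest in PPZ and lowest in PPZ plus BL, at 24.7 ± 4.05 CPM in PPZ plus BL, 56.7 ± 2.44 CPM in PPZ and 42.5 ± 7.88 CPM in BL, against 47.8 ± 6.52 CPM in mock, and 2 of them had no count. GA2OX5 (Glyma.13G218200) had 4.21, 3.51 and 4.47 CPM in PPZ plus BL, 25.4, 24.8 and 23.00 CPM in PPZ and 3.42, 5.68 and 4.996 CPM in BL, against 7.52, 16.9 and 22.3 CPM in mock. It was lower in PPZ plus BL than in PPZ (log2 fold change -2.61 ± 0.13 SE, edgeR adjusted p = 3.74e-05), and higher in PPZ than in BL (log2 fold change 2.38 ± 0.18 SE, edgeR adjusted p = 0.000154). GA2OX6 (Glyma.13G259400) had the opposite order between PPZ and BL, with 6.65, 6.36 and 8.28 CPM in PPZ plus BL, 5.27, 8.45 and 9.03 CPM in PPZ and 15.1, 20.4 and 22.3 CPM in BL, against 16.8, 15.3 and 5.195 CPM in mock, and was lower in PPZ than in BL (log2 fold change -1.34 ± 0.22 SE, edgeR adjusted p = 0.00253), which was lost without BL 2 (edgeR adjusted p = 0.0133). The receptor gene GID1C2 (Glyma.20G230600) averaged 25.2 ± 2.15 CPM in PPZ plus BL, 13.6 ± 3.37 CPM in PPZ and 17.4 ± 3.76 CPM in BL, against 22.1 ± 2.08 CPM in mock and rose in PPZ plus BL against PPZ (log2 fold change 0.87 ± 0.18 SE, edgeR adjusted p = 0.00792), which held only without PPZ 3 and was lost without any other library (edgeR adjusted p between 0.013 and 0.0328). Over the whole list, of 10 genes tested after BL 1 rose (all genes 10.3%) and 1 fell (11.3%), and of 10 tested after PPZ 0 rose (11.3%) and 1 fell (8.38%). Of 11 tested in PPZ plus BL, 2 rose (6.61%) and 2 fell (7.45%), all against mock. Of 11 tested between PPZ plus BL and PPZ, 4 rose (7.99%) and 3 fell (11.5%), and of 10 tested between PPZ and BL, 2 were higher in PPZ (13.6%) and 3 lower (13%).

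Of the 15 genes of the BZR family (Pfam PF05687), which holds the brassinosteroid response factors that DELLA proteins bind, 0 of 14 tested passed after BL (all genes 21.6%), after PPZ (19.7%) or in PPZ plus BL (14.1%) against mock, and 0 passed between PPZ plus BL and PPZ (19.5%). Between PPZ and BL, 2 were higher in PPZ (13.6%), namely BEHL1 (Glyma.01G178000, log2 fold change 0.97 ± 0.16 SE, edgeR adjusted p = 0.0025) and Glyma.11G064300 (log2 fold change 0.56 ± 0.11 SE, edgeR adjusted p = 0.00451), and 1 was lower (13%), Glyma.12G231400 (log2 fold change -0.47 ± 0.11 SE, edgeR adjusted p = 0.00955). The result of BEHL1 was lost without BL 2, BL 3 or PPZ 2 (edgeR adjusted p between 0.0112 and 0.0135), that of Glyma.11G064300 held only without PPZ 3 and was lost without any other library (edgeR adjusted p between 0.0115 and 0.0212), and that of Glyma.12G231400 was lost whichever library was left out (edgeR adjusted p between 0.0149 and 0.0305). The result of GA3OX1 for PPZ against mock held only without mock 1 or mock 3 and was lost without any other library (edgeR adjusted p between 0.0136 and 0.0238), and the other results named for GA3OX1, GA3OX3, GA20OX3 and GA2OX5 held whichever library was left out.

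Several GRAS genes were high in PPZ and low wherever BL had been given. Glyma.06G265500 (chromosome 6, 44937590 to 44941180) had 3.59, 3.84 and 5.17 CPM in PPZ plus BL, 242, 169 and 123 CPM in PPZ and 5.104, 7.58 and 6.14 CPM in BL, against 52.8, 43.7 and 71.1 CPM in mock. The groups without BL were above the groups with BL in every library, and PPZ was above mock without overlap. It fell after BL against mock (log2 fold change -3.17 ± 0.23 SE, edgeR adjusted p = 0.000493) and rose after PPZ against mock (log2 fold change 1.67 ± 0.28 SE, edgeR adjusted p = 0.00439). In PPZ plus BL it fell against PPZ (log2 fold change -5.42 ± 0.30 SE, edgeR adjusted p = 4.36e-05) and against mock (log2 fold change -3.75 ± 0.25 SE, edgeR adjusted p = 0.000321). The call for PPZ against mock was lost without PPZ 1, PPZ 2 or mock 2 (edgeR adjusted p between 0.0121 and 0.0226), and the other calls named here held whichever library was left out. The change after BL differed with and without PPZ (interaction log2 fold change -2.25 ± 0.38 SE, edgeR adjusted p = 0.00136).

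Glyma.12G137700 (chromosome 12, 16373198 to 16377123) followed the same order, with 5.72, 3.05 and 5.62 CPM in PPZ plus BL, 94.3, 75.9 and 47.2 CPM in PPZ and 4.16, 7.75 and 10.1 CPM in BL, against 16.2, 30.3 and 30.4 CPM in mock. No PPZ library overlapped with any other group. It fell in PPZ plus BL against PPZ (log2 fold change -3.94 ± 0.33 SE, edgeR adjusted p = 0.000129) and was higher in PPZ than in BL (log2 fold change 3.32 ± 0.37 SE, edgeR adjusted p = 0.000484), and both calls held whichever library was left out. It also fell after BL (log2 fold change -1.83 ± 0.37 SE, edgeR adjusted p = 0.00786) and in PPZ plus BL (log2 fold change -2.44 ± 0.33 SE, edgeR adjusted p = 0.00259) against mock. The call for BL held only without mock 1 and was lost without any other library (edgeR adjusted p between 0.016 and 0.0343). The call for PPZ plus BL against mock held only without mock 1 or mock 3 and was lost without any other library (edgeR adjusted p between 0.0101 and 0.0129).

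Glyma.13G285400 (chromosome 13, 38002782 to 38006196) gave 23.3, 20.7 and 28.5 CPM in PPZ plus BL, 301, 223 and 122 CPM in PPZ and 34.6, 31.4 and 22.6 CPM in BL, against 37.6, 67.4 and 38.03 CPM in mock. PPZ libraries were the highest of all, PPZ 3 least so. The gene rose after PPZ against mock (log2 fold change 2.18 ± 0.38 SE, edgeR adjusted p = 0.00467), a call that was lost without PPZ 1, PPZ 2 or mock 3 (edgeR adjusted p between 0.0149 and 0.0202). It fell in PPZ plus BL against PPZ (log2 fold change -3.18 ± 0.32 SE, edgeR adjusted p = 0.000287) and was higher in PPZ than in BL (log2 fold change 2.88 ± 0.33 SE, edgeR adjusted p = 0.000567), whichever library was left out. After BL alone the difference from mock was -0.70 on the log2 scale and did not pass (edgeR adjusted p = 0.0708).

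In 3 further genes PPZ libraries were also the highest of all. Glyma.09G011800 had 24.4, 19.4 and 19.2 CPM in PPZ plus BL, 105, 65.8 and 50.5 CPM in PPZ and 21.5, 20.6 and 17.2 CPM in BL, against 28.96, 38.3 and 41.6 CPM in mock. Each PPZ library exceeded every other library, and the gene was called lower in PPZ plus BL than in PPZ (log2 fold change -1.83 ± 0.26 SE, edgeR adjusted p = 0.0014) and higher in PPZ than in BL (log2 fold change 1.91 ± 0.26 SE, edgeR adjusted p = 0.00111). Without PPZ 1 both changes fell under 3-fold (log2 fold change -1.51 and 1.55). Glyma.12G062000 had 0.988, 0.826 and 1.96 CPM in PPZ plus BL, 4.45, 5.68 and 9.57 CPM in PPZ and 0.947, 1.86 and 2.81 CPM in BL, against 0.614, 1.696 and 1.75 CPM in mock. Its BL and PPZ plus BL libraries overlapped with mock. It rose after PPZ against mock (log2 fold change 2.27 ± 0.45 SE, edgeR adjusted p = 0.00745), which held only without mock 1 and was lost without any other library (edgeR adjusted p between 0.0139 and 0.026), and fell in PPZ plus BL against PPZ (log2 fold change -2.41 ± 0.40 SE, edgeR adjusted p = 0.00271), which was lost without PPZ plus BL 2 (edgeR adjusted p = 0.0141). Glyma.14G119100, the second most abundant GRAS gene per kilobase, had 84.5, 60.7 and 61.7 CPM in PPZ plus BL, 209.5, 155 and 133 CPM in PPZ and 67.05, 72.2 and 72.9 CPM in BL, against 104, 94.00 and 107 CPM in mock. It fell in PPZ plus BL against PPZ by under 3-fold (log2 fold change -1.28 ± 0.21 SE, edgeR adjusted p = 0.00255), which was lost without PPZ plus BL 2 or PPZ plus BL 3 (edgeR adjusted p between 0.011 and 0.0158), and was higher in PPZ than in BL (log2 fold change 1.24 ± 0.17 SE, edgeR adjusted p = 0.00122), whichever library was left out.

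**Figure D3:**
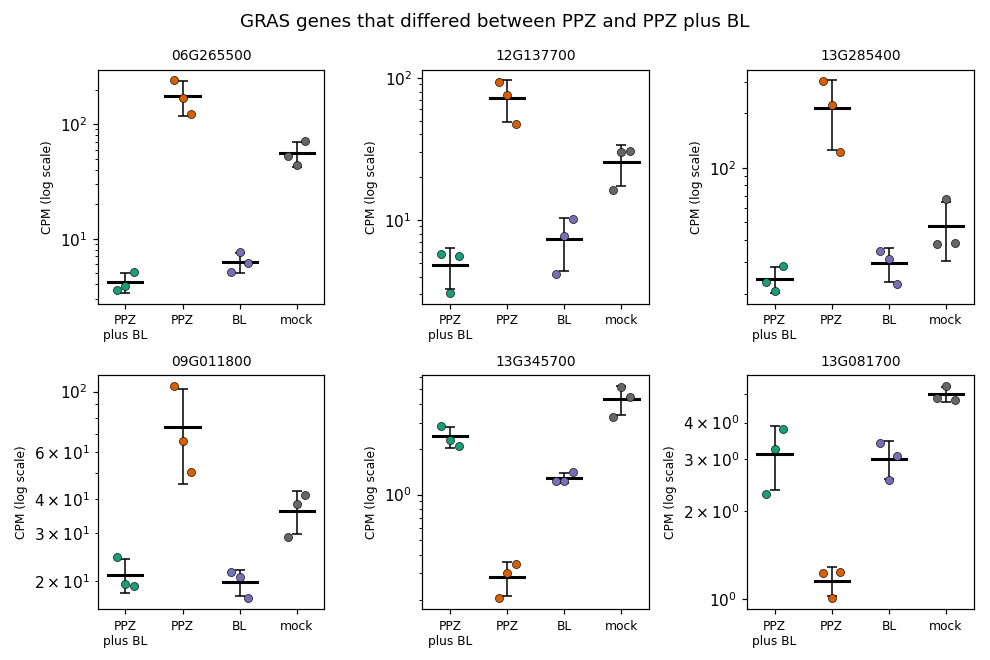
CPM on a log scale in each library (points), with group means (lines) and SD (bars, n = 3), for 4 GRAS genes that were highest in PPZ and 2 that were lowest there, in PPZ plus BL, PPZ, BL and mock. Glyma.06G265500 averaged 4.199 CPM in PPZ plus BL, against 178 CPM in PPZ, and Glyma.13G345700 averaged 2.43 CPM in PPZ plus BL, against 0.284 CPM in PPZ.

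Other GRAS genes were lowest in PPZ. Glyma.13G345700 (chromosome 13, 42997980 to 42999830) had 2.86, 2.31 and 2.11 CPM in PPZ plus BL, 0.205, 0.302 and 0.345 CPM in PPZ and 1.23, 1.23 and 1.41 CPM in BL, against 3.27, 5.19 and 4.46 CPM in mock. No groups overlapped, with mock highest, PPZ plus BL next, then BL and PPZ last. Every PPZ library of Glyma.13G345700 lay under 1 CPM, so its folds that involve PPZ rest on few counts there. It fell after PPZ (log2 fold change -3.89 ± 0.33 SE, edgeR adjusted p = 0.000542) and after BL (log2 fold change -1.75 ± 0.25 SE, edgeR adjusted p = 0.00239) against mock, and rose in PPZ plus BL against PPZ (log2 fold change 3.05 ± 0.32 SE, edgeR adjusted p = 0.000342). The call for BL held only without mock 1 or mock 3 and was lost without any other library (edgeR adjusted p between 0.0118 and 0.016), and the calls for PPZ and for PPZ plus BL against PPZ held whichever library was left out. Added to seedlings without PPZ, BL was followed by a lower level, and added after PPZ by a higher one (interaction log2 fold change 4.80 ± 0.38 SE, edgeR adjusted p = 2.74e-05).

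Glyma.13G081700 (chromosome 13, 18107411 to 18109266) had 2.29, 3.26 and 3.82 CPM in PPZ plus BL, 1.23, 1.01 and 1.23 CPM in PPZ and 3.42, 2.54 and 3.07 CPM in BL, against 4.86, 5.35 and 4.79 CPM in mock. Here PPZ was lowest and mock highest, each without overlap. It fell after PPZ against mock (log2 fold change -2.11 ± 0.21 SE, edgeR adjusted p = 0.000758), whichever library was left out, and it rose in PPZ plus BL against PPZ (log2 fold change 1.41 ± 0.26 SE, edgeR adjusted p = 0.0045), which held only without PPZ plus BL 1 and was lost without any other library (edgeR adjusted p between 0.0145 and 0.0273). Glyma.15G028600 had 0.572, 0.66 and 0.854 CPM in PPZ plus BL, 0.102, 0.201 and 0.345 CPM in PPZ and 0.988, 1.02 and 0.624 CPM in BL, against 1.28, 2.07 and 1.705 CPM in mock, with at most 7 counts in a PPZ library. It fell after PPZ against mock (log2 fold change -2.92 ± 0.45 SE, edgeR adjusted p = 0.00307), and this call was lost without PPZ 1, PPZ 2 or mock 2 (edgeR adjusted p between 0.0136 and 0.0205).

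In Glyma.12G022600 (chromosome 12, 1646944 to 1648799) the order was another one, with 4.89, 5.201 and 4.52 CPM in PPZ plus BL, 1.18, 0.905 and 2.32 CPM in PPZ and 4.36, 4.07 and 3.33 CPM in BL, against 2.098, 2.01 and 1.42 CPM in mock. The groups given BL were above the groups without it, though PPZ 3 came above every mock library. It rose in PPZ plus BL against PPZ (log2 fold change 1.71 ± 0.32 SE, edgeR adjusted p = 0.00496), which held only without PPZ 3 or PPZ plus BL 1 and was lost without any other library (edgeR adjusted p between 0.012 and 0.0224), and in PPZ plus BL against mock (log2 fold change 1.39 ± 0.23 SE, edgeR adjusted p = 0.00473), which held only without mock 1 and was lost without any other library (edgeR adjusted p between 0.0136 and 0.0299). A pair of genes changed less. Glyma.03G065700 averaged 4.603 ± 0.354 CPM in PPZ plus BL, 2.31 ± 0.567 CPM in PPZ and 4.46 ± 0.387 CPM in BL, against 6.35 ± 1.04 CPM in mock and fell after PPZ (log2 fold change -1.46 ± 0.25 SE, edgeR adjusted p = 0.0043), which was lost without PPZ 1, PPZ 2 or mock 2 (edgeR adjusted p between 0.018 and 0.0245). Glyma.01G226600 averaged 4.38 ± 0.51 CPM in PPZ plus BL, 1.78 ± 0.733 CPM in PPZ and 3.44 ± 0.695 CPM in BL, against 5.16 ± 0.963 CPM in mock and likewise fell after PPZ (log2 fold change -1.52 ± 0.32 SE, edgeR adjusted p = 0.00974), which held only without PPZ 3 or mock 1 and was lost without any other library (edgeR adjusted p between 0.015 and 0.0462).

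Another set was lower than mock in every treated group, each compared with the same mock libraries. Glyma.03G219900 (chromosome 3, 43489112 to 43491600) had 0, 0 and 0 CPM in PPZ plus BL, 1.07, 0.805 and 0.543 CPM in PPZ and 0.123, 0.127 and 0 CPM in BL, against 2.56, 5.62 and 4.06 CPM in mock. It had no count in PPZ plus BL and at most 3 counts in a BL library, and mock was above all other libraries. In PPZ plus BL it was at least 28.4-fold lower than in mock and at least 5.63-fold lower than in PPZ, taking 3 counts per library as the floor. It fell after BL (log2 fold change -5.45 ± 0.60 SE, edgeR adjusted p = 0.00123) and in PPZ plus BL (edgeR adjusted p = 0.00177) against mock, whichever library was left out. The call for PPZ against mock (log2 fold change -2.33 ± 0.39 SE, edgeR adjusted p = 0.00425) held only without mock 1 and was lost without any other library (edgeR adjusted p between 0.0109 and 0.0235). PPZ plus BL against PPZ was called as well (edgeR adjusted p = 0.00231), a call that was lost without PPZ 2 (edgeR adjusted p = 0.0109).

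Glyma.09G036500 (chromosome 9, 3020573 to 3023389) had 0.312, 0.206 and 0.0502 CPM in PPZ plus BL, 0, 0 and 0 CPM in PPZ and 0.0823, 0.212 and 0 CPM in BL, against 1.48, 2.01 and 1.38 CPM in mock. Every treated library was under every mock library, and no PPZ library had a count, so that PPZ was at least 10.8-fold lower than mock at the same floor. It fell after PPZ against mock (edgeR adjusted p = 0.00152), whichever library was left out. The call for BL against mock (log2 fold change -3.91 ± 0.62 SE, edgeR adjusted p = 0.00345) held only without mock 1 or mock 3 and was lost without any other library (edgeR adjusted p between 0.0107 and 0.0194), and that for PPZ plus BL (log2 fold change -3.07 ± 0.50 SE, edgeR adjusted p = 0.00462) held only without mock 1 and was lost without any other library (edgeR adjusted p between 0.0111 and 0.029).

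NSP2 (Glyma.04G251900, chromosome 4, 50688473 to 50690520), named after its role in nodulation signalling, was near the detection limit outside mock, with 0.416, 0.289 and 0.0502 CPM in PPZ plus BL, 0.102, 0 and 0.0987 CPM in PPZ and 0.123, 0.169 and 0.104 CPM in BL, against 1.02, 1.17 and 0.609 CPM in mock. Treated libraries held 0 to 8 counts and mock libraries 15 to 22, and no treated library reached mock. It fell after BL (log2 fold change -2.75 ± 0.45 SE, edgeR adjusted p = 0.00378), which held only without mock 1 or mock 3 and was lost without any other library (edgeR adjusted p between 0.0175 and 0.0207). It fell after PPZ too (log2 fold change -3.67 ± 0.66 SE, edgeR adjusted p = 0.00547), and this call held only without mock 1 or mock 3 and was lost without any other library (edgeR adjusted p between 0.0181 and 0.0217). The difference between PPZ plus BL and mock did not pass (log2 fold change -1.86 ± 0.59 SE, edgeR adjusted p = 0.0438). NSP1 (Glyma.07G039400), its partner in the same pathway, averaged 9.29 ± 2.56 CPM in PPZ plus BL, 7.29 ± 2.22 CPM in PPZ and 7.63 ± 0.923 CPM in BL, against 8.57 ± 3.33 CPM in mock, and its groups overlapped in each comparison. The lowest edgeR adjusted p of NSP1 was 0.364, for the interaction.

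Glyma.11G138502 averaged 1.16 ± 0.262 CPM in PPZ plus BL, 0.768 ± 0.295 CPM in PPZ and 0.888 ± 0.237 CPM in BL, against 3.397 ± 0.943 CPM in mock, and its mock libraries lay above all others. It fell after BL (log2 fold change -1.95 ± 0.33 SE, edgeR adjusted p = 0.00411), which held only without mock 1 and was lost without any other library (edgeR adjusted p between 0.013 and 0.0182). It fell after PPZ (log2 fold change -2.14 ± 0.37 SE, edgeR adjusted p = 0.00453), which held only without PPZ 3 or mock 1 and was lost without any other library (edgeR adjusted p between 0.0128 and 0.0223). In PPZ plus BL it fell against mock by just under 3-fold (log2 fold change -1.57 ± 0.31 SE, edgeR adjusted p = 0.00949), which held only without mock 1 and was lost without any other library (edgeR adjusted p between 0.018 and 0.0482).

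A further set was higher than mock after treatment. Glyma.02G297700 (chromosome 2, 49341061 to 49344718) had 11.2, 9.95 and 14.1 CPM in PPZ plus BL, 21.04, 23.9 and 19.7 CPM in PPZ and 16.6, 16.2 and 21.5 CPM in BL, against 5.88, 3.87 and 3.13 CPM in mock. All treated libraries were above all mock libraries. It rose after BL (log2 fold change 2.07 ± 0.26 SE, edgeR adjusted p = 0.00163), after PPZ (log2 fold change 2.33 ± 0.24 SE, edgeR adjusted p = 0.000857) and in PPZ plus BL (log2 fold change 1.45 ± 0.26 SE, edgeR adjusted p = 0.00676) against mock. The call for PPZ held whichever library was left out, the call for BL was lost without mock 2 (edgeR adjusted p = 0.0102), and the result for PPZ plus BL held only without mock 1 and was lost without any other library (edgeR adjusted p between 0.0177 and 0.0347). PPZ plus BL was lower than PPZ (log2 fold change -0.90 ± 0.15 SE, edgeR adjusted p = 0.0031), which was lost without PPZ 2 or PPZ plus BL 2 (edgeR adjusted p between 0.0153 and 0.0155).

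Glyma.12G216100 (chromosome 12, 38984338 to 38987764) had 17.7, 8.503 and 11.6 CPM in PPZ plus BL, 35.2, 30.02 and 27.4 CPM in PPZ and 14.5, 23.05 and 32.5 CPM in BL, against 6.29, 9.06 and 8.402 CPM in mock. PPZ and BL were both above mock without overlap, and PPZ plus BL overlapped with mock. It rose after PPZ (log2 fold change 1.96 ± 0.18 SE, edgeR adjusted p = 0.000581), whichever library was left out, and after BL (log2 fold change 1.54 ± 0.30 SE, edgeR adjusted p = 0.00688), which held only without BL 1 or mock 1 and was lost without any other library (edgeR adjusted p between 0.0195 and 0.0259). Glyma.18G205100 had 1.98, 0.949 and 1.05 CPM in PPZ plus BL, 5.12, 2.31 and 5.13 CPM in PPZ and 0.988, 2.75 and 4.16 CPM in BL, against 0.665, 1.38 and 0.974 CPM in mock, with every PPZ library above mock. It rose after PPZ (log2 fold change 2.06 ± 0.41 SE, edgeR adjusted p = 0.00804), a call that held only without PPZ 2 and was lost without any other library (edgeR adjusted p between 0.0114 and 0.0312). Glyma.14G016000 averaged 15.8 ± 1.57 CPM in PPZ plus BL, 28.5 ± 3.34 CPM in PPZ and 16.8 ± 3.84 CPM in BL, against 11.8 ± 0.971 CPM in mock and rose after PPZ by under 3-fold (log2 fold change 1.27 ± 0.13 SE, edgeR adjusted p = 0.000899), whichever library was left out. This gene shares 3093 bases with Glyma.14G016100 on the opposite strand, itself a GRAS gene with 168 counts in all, and the reads of the pair cannot be told apart because the library kit does not mark strand.

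A pair of genes was highest after BL. Glyma.17G131200 (chromosome 17, 10501841 to 10505324) had 12.1, 17.7 and 24.5 CPM in PPZ plus BL, 12.5, 12.3 and 12.9 CPM in PPZ and 32.6, 27.1 and 37.3 CPM in BL, against 9.82, 2.23 and 2.801 CPM in mock. Every BL library was above all others, and mock 1, at 9.82 CPM, was well above mock 2 and mock 3. It rose after BL against mock (log2 fold change 2.70 ± 0.53 SE, edgeR adjusted p = 0.00714), a call that held only without mock 1 and was lost without any other library (edgeR adjusted p between 0.0193 and 0.0273). A gene on the opposite strand shares 162 bases with it but had only 19 counts in all. Glyma.17G131200 was lower in PPZ than in BL (log2 fold change -1.36 ± 0.13 SE, edgeR adjusted p = 0.000301), whichever library was left out. The values of Glyma.05G049300 (chromosome 5, 4519916 to 4523310) ran in parallel, with 7.75, 12.1 and 15.8 CPM in PPZ plus BL, 8.599, 7.79 and 8.98 CPM in PPZ and 23.6, 21.7 and 22.7 CPM in BL, against 7.32, 1.64 and 2.23 CPM in mock, and mock 1 again stood apart. It rose after BL against mock (log2 fold change 2.60 ± 0.50 SE, edgeR adjusted p = 0.00696), which held only without mock 1 and was lost without any other library (edgeR adjusted p between 0.0193 and 0.0253), and was lower in PPZ than in BL (log2 fold change -1.42 ± 0.10 SE, edgeR adjusted p = 0.000124), whichever library was left out.

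**Figure D4:**
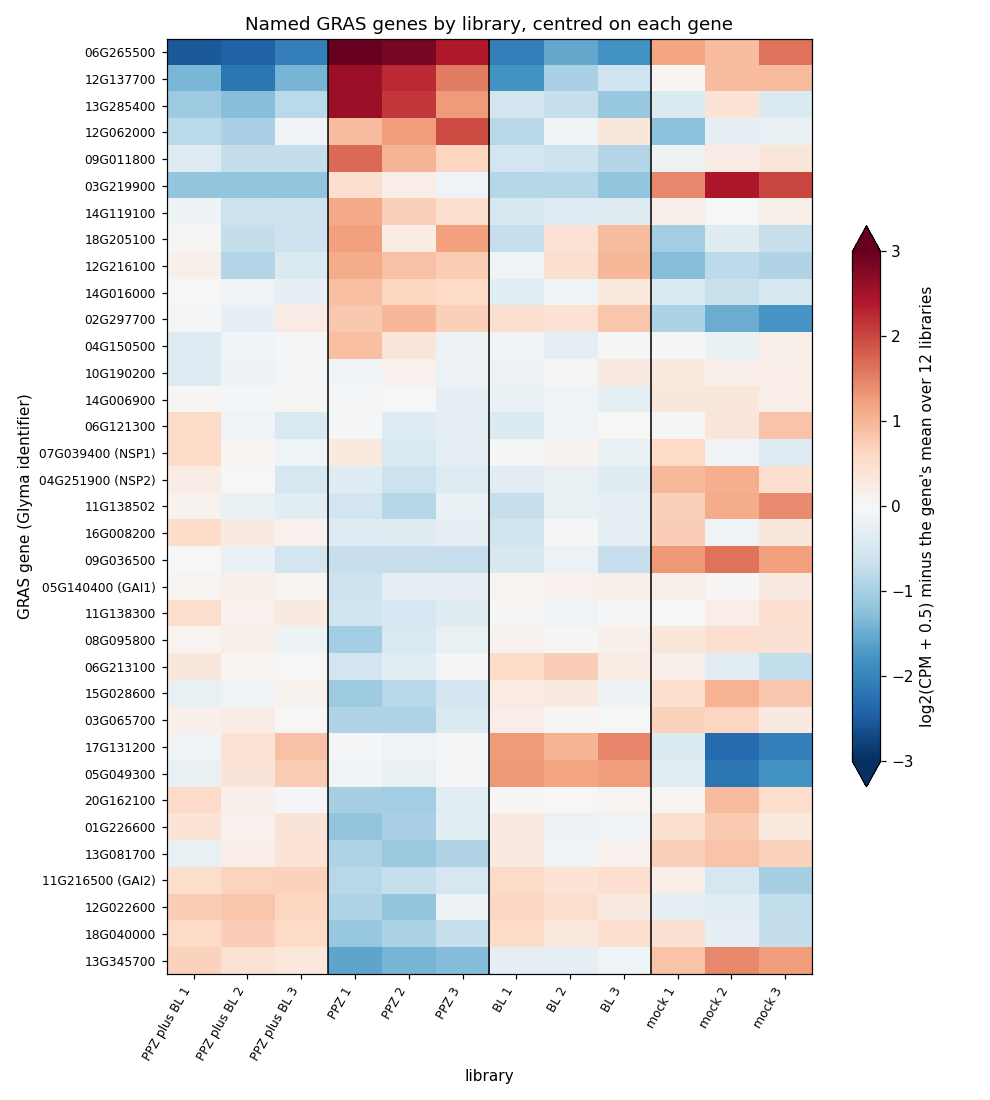
Level of the 35 named GRAS genes (rows) in each of the 12 libraries (columns, ordered as PPZ plus BL, PPZ, BL and mock), as log2(CPM + 0.5) minus the mean of the gene over the 12 libraries. Rows run from genes highest in PPZ (top, Glyma.06G265500) to genes lowest in PPZ (bottom, Glyma.13G345700), and Glyma.13G345700 averages 2.43 CPM in PPZ plus BL, 0.284 CPM in PPZ and 1.29 CPM in BL, against 4.31 CPM in mock.

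Between PPZ plus BL and BL alone, 0 of 89 GRAS genes tested were called (0.00565% of all genes, 2 of 35417), by edgeR and equally by DESeq2, so that the count is no result about the family. The libraries of both groups did not overlap for 20 of the 89 genes (22.5%, against 29.7% of all genes). At an unadjusted p under 0.05, 19 of 89 genes differed (21.3%, against 21.9% of all genes). No log2 fold change exceeded 1.15 in either direction. Among the GRAS genes named above, the lowest adjusted p values belonged to Glyma.05G049300 (log2 fold change -0.94 ± 0.23 SE, edgeR adjusted p = 0.0894) and Glyma.13G345700 (log2 fold change 0.90 ± 0.22 SE, edgeR adjusted p = 0.0931). These tests do not show that the groups were alike, since the median SE over the GRAS genes was 0.18 on the log2 scale.

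The highest GRAS transcript per kilobase, Glyma.06G121300, had 324, 201 and 158 CPM in PPZ plus BL, 214, 167 and 182 CPM in PPZ and 165, 206 and 215 CPM in BL, against 214, 282 and 392 CPM in mock. Its groups overlapped, and it passed in no comparison (after BL log2 fold change -0.62 ± 0.23 SE, edgeR adjusted p = 0.0683). Glyma.14G006900 averaged 56.6 ± 1.59 CPM in PPZ plus BL, 52.6 ± 4.83 CPM in PPZ and 48.8 ± 2.500 CPM in BL, against 68.6 ± 3.86 CPM in mock and fell after BL by under 3-fold (log2 fold change -0.50 ± 0.10 SE, edgeR adjusted p = 0.00774), which held only without mock 1 and was lost without any other library (edgeR adjusted p between 0.0149 and 0.0387).

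The 4 groups form a layout of BL and PPZ, each given or not, and the interaction asks whether the change after BL differed with and without PPZ. PPZ lasted 2.5 days in the PPZ group and, by the series description, 2 days before BL in the combined group. A change after BL in the combined group cannot be told apart from a difference in the time in PPZ. The interaction also uses the mock libraries that the comparisons with mock share. It passed for 19 of 93 GRAS genes tested, beside 17.5% of all genes. For 12 of them the change after BL was more positive with PPZ (all genes 7.84%), while for 7 it was more negative (all genes 9.62%). The count was 10 without BL 2, 10 without BL 3, 11 without PPZ 1, 11 without PPZ 2, 12 without PPZ plus BL 2 and 12 without mock 2. DESeq2 gave 29, the 19 included. For these fits too the share of all genes is not given. Glyma.13G345700 fell after BL without PPZ and rose after BL with PPZ (PPZ plus BL against PPZ). Glyma.02G297700 rose after BL without PPZ and fell after BL with PPZ (interaction log2 fold change -2.96). In Glyma.12G216100 the log2 fold change after BL was 1.54 without PPZ and -1.31 with PPZ, and both passed, with an interaction of -2.85. The result with PPZ held only without PPZ 3 or PPZ plus BL 1 and was lost without any other library (edgeR adjusted p between 0.0139 and 0.0204). In Glyma.11G138502 the log2 fold change after BL was -1.95 without PPZ, which passed, and 0.57 with PPZ, which did not (edgeR adjusted p = 0.263). In Glyma.12G062000 it was 0.44 without PPZ, which did not pass (edgeR adjusted p = 0.516), and -2.41 with PPZ, which did (interaction -2.83). In Glyma.06G265500 and Glyma.13G285400 the log2 fold change after BL was negative in both and larger with PPZ, although for Glyma.13G285400 BL without PPZ did not pass.

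**Figure D5:**
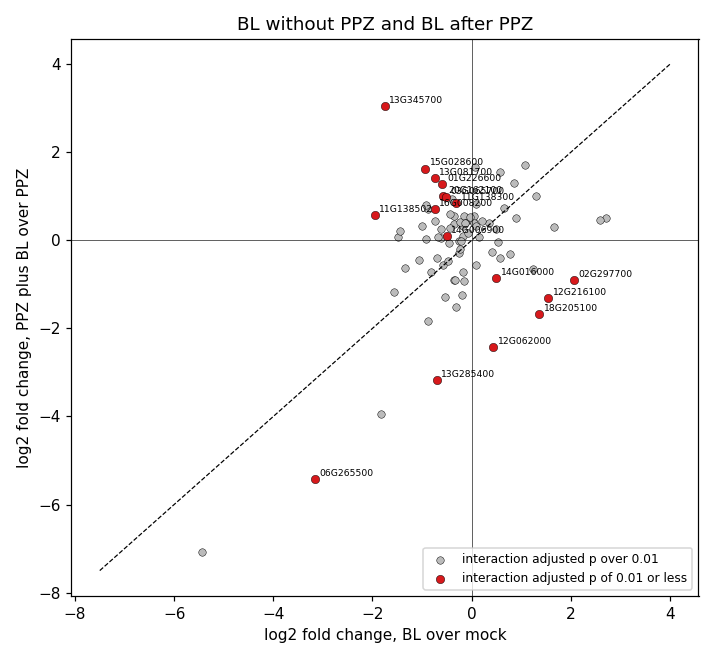
Log2 fold change after BL without PPZ (BL over mock, horizontal) and with PPZ (PPZ plus BL over PPZ, vertical) for the 88 GRAS genes tested in both, which share no library. The dashed line marks equal change, and red points are 17 of the 19 genes that passed the interaction test, with Glyma.13G345700 at the upper left (-1.75 and 3.05).

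Of the 112 genes, 23 lay in 6 arrays, here runs of GRAS genes no more than 50 kb apart on either strand. In 4 of the arrays, genes that passed in some comparison stood beside genes that passed in none, while in 1 every gene passed somewhere and in 1 no gene did. Those 4 include the overlapping pair Glyma.14G016000 and Glyma.14G016100, which lie on opposite strands and whose reads cannot be told apart. In the array of 6 genes on chromosome 11 (10471743 to 10517470) the levels ran from 0.585 to 2.59 CPM per kb. Only Glyma.11G138502 was called there between a pair of groups, while Glyma.11G138400 fell after BL by under 3-fold (log2 fold change -0.92 ± 0.18 SE, edgeR adjusted p = 0.00758) and Glyma.11G138300 rose in PPZ plus BL against PPZ (log2 fold change 0.84 ± 0.17 SE, edgeR adjusted p = 0.00648). The result of Glyma.11G138400 held only without mock 1 and was lost without any other library (edgeR adjusted p between 0.0243 and 0.0369), and that of Glyma.11G138300 held only without PPZ 3 and was lost without any other library (edgeR adjusted p between 0.011 and 0.0295). In the array of 4 genes on chromosome 12 (4497092 to 4534250), Glyma.12G062000 was the only one to pass in any comparison, although Glyma.12G061900 beside it was more abundant, at 23.9 ± 2.52 CPM in PPZ plus BL, 22.6 ± 3.73 CPM in PPZ and 25.6 ± 3.16 CPM in BL, against 39.2 ± 8.86 CPM in mock. In the array of 5 genes on chromosome 13 (42392352 to 42427778), Glyma.13G337400 averaged 33.2 ± 1.41 CPM in PPZ plus BL, 61.2 ± 8.14 CPM in PPZ and 34.9 ± 6.101 CPM in BL, against 43.3 ± 11.4 CPM in mock and was lower in PPZ plus BL than in PPZ (log2 fold change -0.90 ± 0.12 SE, edgeR adjusted p = 0.000999), whichever library was left out. Genes of arrays that were not named before this paragraph were chosen after their values were seen. The 4 genes on chromosome 15 (2898987 to 2928916) passed in no comparison. Genes of an array can be similar in sequence, and how reads that match several genes were counted is not given in the sources used here, so that values of neighbours may share reads.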

How the data were processed

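The 12 libraries were RNA-seq of root tips, 3 for each of PPZ plus BL, PPZ, BL and mock. The authors aligned reads with HISAT2 2.0.5 and deposited raw counts per gene from featureCounts 1.5.0-p3. The strand and multimapping settings and the genome build are not given in the sources used here. The deposited table also holds 12 FPKM columns and 25 columns of the authors' own comparisons (fold changes, p-values and calls), which were not used. The 980 loci outside the annotation, with 0.545% to 0.638% of the counts of a library, were left out of library sizes and tests. GRAS genes were the rows that name Pfam PF03514. The members and the gene lists were chosen with earlier results of these data known.

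The main analysis was edgeR 4.0.16 under R 4.3.3 (filterByExpr, TMM, glmQLFit, glmQLFTest). Every annotated gene entered, and each of the 6 comparisons was fitted on its own pair of groups, while the interaction used all 12 libraries and no minimum fold. A call required 3-fold change together with an adjusted p (Benjamini-Hochberg) of at most 0.01, as in the study. Nothing more than the labels separates replicates, so p-values measure the spread between these libraries. A fold against a group at 0 used a floor of 3 counts per library and covers counting error only. Named genes were, per comparison, up to 6 called genes in each direction that reached 10 counts throughout the higher group. To these were added all DELLA domain genes (Pfam PF12041), NSP1 and NSP2, the 5 genes highest per kilobase, and those past the interaction test.

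Symbols came from RefSeq (Glycine_max_v4.0) through shared position, at an overlap of at least 0.5 of the longer gene. Of the GRAS genes 92 matched, and of 47068 protein-coding RefSeq genes 39174 matched 1 gene of the table. Coordinates are those of the table. RefSeq gave no product names here, so SCARECROW, SHORT-ROOT, other subfamilies, indeterminate-domain genes and root cell markers could not be listed, and no sequence is shown. As alternatives, the test was replaced by DESeq2 1.42.0, TMM by median-ratio scaling or (added after the data were seen) by plain library size, and the filter on low counts, the fold threshold and each library in turn were left out. Other fits pooled all groups or blocked on the replicate number. The fits were tested on simulated data. Python 3.11.15 with pandas 2.3.3 and NumPy 2.4.6 made the tables, and Matplotlib 3.10.9 the figures.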

Additional observations from a re-analysis of the deposited data

Results flagged for a closer look

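The interaction test, which asks whether the log2 change after BL differed between root tips with and without PPZ, picked out 19 GRAS genes at an edgeR adjusted p of 0.01 or less. A positive value means a more positive change after BL with PPZ than without it. The time in PPZ differed between the PPZ and combined groups, as given above. The values were 8.94 for Glyma.09G036500, 4.80 for Glyma.13G345700, 4.56 for NSP2, 2.58 for Glyma.15G028600, 2.52 for Glyma.11G138502 and 2.16 for Glyma.13G081700. They were 1.87 for Glyma.01G226600, 1.58 for Glyma.20G162100, 1.49995 for Glyma.03G065700, 1.45 for Glyma.16G008200, 1.15 for Glyma.11G138300 and 0.60 for Glyma.14G006900. Negative values were -3.04 for Glyma.18G205100, -2.96 for Glyma.02G297700, -2.85 for Glyma.12G216100, -2.83 for Glyma.12G062000, -2.47 for Glyma.13G285400, -2.25 for Glyma.06G265500 and -1.36 for Glyma.14G016000. The value of Glyma.09G036500 rests on a PPZ group without a count, and its size depends on the prior count of the fit.

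With single libraries left out, the result held in all 12 fits for 10 of the 19 genes. The result for Glyma.14G006900 held only without mock 3 and was lost without any other library (edgeR adjusted p between 0.0105 and 0.0213). For Glyma.16G008200 it held only without PPZ plus BL 3 or mock 2 and was lost without any other library (edgeR adjusted p between 0.0104 and 0.0209). The NSP2 result held only without PPZ plus BL 3, mock 1 or mock 3 and was lost without any other library (edgeR adjusted p between 0.0116 and 0.0209). The result of Glyma.12G062000 held only without BL 1, PPZ plus BL 3 or mock 1 and was lost without any other library (edgeR adjusted p between 0.0116 and 0.0291), and that of Glyma.18G205100 held only without BL 1, PPZ 2 or PPZ plus BL 1 and was lost without any other library (edgeR adjusted p between 0.0112 and 0.0239). The result of Glyma.20G162100 held only without PPZ 3, PPZ plus BL 3 or mock 1 and was lost without any other library (edgeR adjusted p between 0.0111 and 0.019), and that of Glyma.15G028600 held only without BL 1, PPZ 3, PPZ plus BL 1, mock 1 or mock 3 and was lost without any other library (edgeR adjusted p between 0.0103 and 0.0155). For Glyma.01G226600 it was lost without BL 2, BL 3, PPZ 2 or mock 2 (edgeR adjusted p between 0.011 and 0.0125), and for Glyma.11G138300 it was lost without BL 2, BL 3, PPZ 1 or PPZ 2 (edgeR adjusted p between 0.0107 and 0.0121).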

How the results depend on the processing

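Among the values of named genes, 90 of 238 passed in the main fit, and 0 of these turned direction under any alternative. Outside the fits that left out a library, 1282 values stayed on their side of the adjusted p, passed or not. Another 45 lost it and 66 gained it, counted over the alternatives. Of the 45 losses, 31 came with the block on the replicate number. Without a fold threshold the counts of genes were 19 for BL, 20 for PPZ and 8 for PPZ plus BL, each against mock, 18 for PPZ plus BL against PPZ and 25 for PPZ against BL. For PPZ plus BL against mock, DESeq2 gave 8 and the fit of all 12 libraries gave 8, and DESeq2 gave 29 for the interaction. With the replicate number as a block the counts were 8 for PPZ against mock and 1 for PPZ plus BL against mock. Deviations of same-numbered libraries were weakly correlated (r between -0.303 and 0.155 over genes). In 4 of 18 comparisons of a library with another group, the best correlation was with its own number. With 3 libraries per group, this cannot exclude that the numbers pair the libraries. Leaving out 1 library gave 2 to 13 genes for BL against mock, 5 to 16 for PPZ against mock, 2 to 10 for PPZ plus BL against mock, 6 to 12 for PPZ plus BL against PPZ, 0 to 0 for PPZ plus BL against BL, 5 to 8 for PPZ against BL and 10 to 22 for the interaction. Shares of all genes in these fits are not given here, and the cause of these moves was not tested. Genes under about 1 CPM rest on few counts, and although some passed, among them NSP2 and Glyma.15G028600, a difference that missed the threshold there is not shown to be absent.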

Other observations

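The GRAS genes outside the naming rule that passed by adjusted p alone in more than 1 comparison were chosen after their values were seen. Glyma.17G007600 averaged 6.65 ± 1.31 CPM in PPZ plus BL, 14.9 ± 4.82 CPM in PPZ and 6.21 ± 1.64 CPM in BL, against 18.2 ± 7.73 CPM in mock. It fell after BL against mock (log2 fold change -1.56 ± 0.33 SE, edgeR adjusted p = 0.00957), which held only without mock 1 and was lost without any other library (edgeR adjusted p between 0.0114 and 0.0369), and was higher in PPZ than in BL (log2 fold change 1.26 ± 0.29 SE, edgeR adjusted p = 0.00953), which held only without PPZ 3 and was lost without any other library (edgeR adjusted p between 0.0147 and 0.0376). Glyma.12G022100 averaged 16.98 ± 0.58 CPM in PPZ plus BL, 22.9 ± 1.91 CPM in PPZ and 12.5 ± 1.59 CPM in BL, against 26.02 ± 3.66 CPM in mock and had the same directions. Its fall after BL (log2 fold change -1.07 ± 0.15 SE, edgeR adjusted p = 0.00265) was lost without BL 2, BL 3 or mock 2 (edgeR adjusted p between 0.0132 and 0.0169), and its higher level in PPZ than in BL (log2 fold change 0.87 ± 0.12 SE, edgeR adjusted p = 0.00124) held whichever library was left out. Glyma.15G116300 averaged 16.03 ± 6.21 CPM in PPZ plus BL, 37.4 ± 11.3 CPM in PPZ and 15.9 ± 1.83 CPM in BL, against 17.97 ± 1.82 CPM in mock. Its rise after PPZ against mock (log2 fold change 1.06 ± 0.22 SE, edgeR adjusted p = 0.00851) was lost whichever library was left out (edgeR adjusted p between 0.0103 and 0.0409), and its higher level in PPZ than in BL (log2 fold change 1.24 ± 0.21 SE, edgeR adjusted p = 0.00264) was lost without BL 2 or BL 3 (edgeR adjusted p between 0.0112 and 0.0145).

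Glyma.01G194200 averaged 17.6 ± 3.13 CPM in PPZ plus BL, 22.9 ± 2.27 CPM in PPZ and 15.3 ± 0.469 CPM in BL, against 10.1 ± 2.44 CPM in mock. Its rise after PPZ against mock (log2 fold change 1.18 ± 0.20 SE, edgeR adjusted p = 0.0041) held only without mock 1 or mock 3 and was lost without any other library (edgeR adjusted p between 0.0126 and 0.0164), and its higher level in PPZ than in BL (log2 fold change 0.59 ± 0.10 SE, edgeR adjusted p = 0.00261) was lost without BL 2 or BL 3 (edgeR adjusted p between 0.0108 and 0.0132). Glyma.11G047700 averaged 21.4 ± 2.48 CPM in PPZ plus BL, 21.6 ± 2.94 CPM in PPZ and 17.7 ± 2.56 CPM in BL, against 12.1 ± 0.579 CPM in mock. It rose after PPZ (log2 fold change 0.83 ± 0.14 SE, edgeR adjusted p = 0.00405), which held only without PPZ 2 or mock 1 and was lost without any other library (edgeR adjusted p between 0.0126 and 0.0193), and in PPZ plus BL (log2 fold change 0.81 ± 0.13 SE, edgeR adjusted p = 0.00505) against mock, which held only without mock 1 and was lost without any other library (edgeR adjusted p between 0.0106 and 0.0255). Glyma.18G081100 averaged 22.96 ± 2.99 CPM in PPZ plus BL, 43.3 ± 9.94 CPM in PPZ and 23.4 ± 2.95 CPM in BL, against 25.7 ± 2.01 CPM in mock. It was lower in PPZ plus BL than in PPZ (log2 fold change -0.93 ± 0.18 SE, edgeR adjusted p = 0.0053), which was lost without PPZ 2, PPZ plus BL 2 or PPZ plus BL 3 (edgeR adjusted p between 0.0117 and 0.0264), and higher in PPZ than in BL (log2 fold change 0.90 ± 0.18 SE, edgeR adjusted p = 0.0052), which held only without PPZ 1 or PPZ 3 and was lost without any other library (edgeR adjusted p between 0.0108 and 0.0201).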
